A study of Homo sapiens with 18 samples.

Results

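The genes described are 50 that carry cells through the G2 phase, mitosis and cytokinesis: mitotic cyclins and kinases, spindle checkpoint, centromere, kinetochore, spindle and cytokinesis genes. They were chosen by name and found by symbol in the expression tables, which list 26249 genes, and all 50 passed the filter on low values, a group mean of 1 FPKM or more in any of the groups. Transcript levels came from 3′ end RNA sequencing (QuantSeq) of human cultures labelled as the multiple myeloma lines XG1 and AMO1, in 6 groups of 3 libraries. In each line the groups were 6 h of 100 nM YKL-5-124, 6 h of 1000 nM YKL-5-124, and 6 h of DMSO, the solvent. YKL-5-124 is a covalent inhibitor of CDK7. No genotype or other agent is given for either line. The series title calls the lines resistant, and nothing in the labels says that a line was made so for the libraries used here. Multiple myeloma is a cancer of plasma cells, and the libraries labelled XG1 went against that label: of 10 plasma cell markers 1 was at 10 FPKM or more in all 9 of them and 5 were under 1 FPKM in all 9, while of 11 erythroid markers 7 were at 10 FPKM or more throughout. In AMO1 9 of the 10 plasma cell markers and 0 of the 11 erythroid markers were at that level. The plasma cell markers summed to between 44.4 and 75.9 FPKM in XG1 libraries and between 4808 and 7249 FPKM in AMO1 libraries, and the erythroid markers to between 2657 and 3188 FPKM in XG1 and between 3.34 and 21.4 FPKM in AMO1. Of 10 T cell and myeloid and 10 stromal and epithelial markers, 1 and 2 were at 10 FPKM or more in all XG1 libraries, and 0 of either in AMO1. The name XG1 below therefore stands for the libraries labelled XG1. Levels are in FPKM, and log2 changes are differences of log2(FPKM + 1) with their standard error (SE), a scale that understates the change of low genes. A gene rose or fell where limma, fitted to 12204 genes over all 18 libraries, gave a Benjamini-Hochberg adjusted p under 0.05 (two-sided).

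Entry into mitosis is driven by CDK1 bound to cyclin A or cyclin B. CDK7, the target of the inhibitor, phosphorylates the activating loop of CDK1 as well as the tail of RNA polymerase II. Most genes of mitosis are transcribed in G2, after being held down earlier in the cycle by the DREAM complex, which binds a promoter element called the cell cycle genes homology region (CHR). In G2 the MuvB core of that complex instead works with B-MYB (the product of MYBL2) and FOXM1, and NF-Y binding to CCAAT boxes contributes. Proteins of many of these genes are destroyed at the end of mitosis by the anaphase-promoting complex.

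The CHR core TTTGAA and the CCAAT box were searched on both strands in RefSeq promoter windows of GRCh38.p14, from 250 bases before to 50 bases after a start site, and matches of the 2 motifs can share no more than 1 letter. Of the 50 genes 42 had at least 1 window, 54 windows in all. AURKA, BIRC5, BUB3, FOXM1, TPX2, TTK, UBE2C and WEE1 had none. TTTGAA was in 61.1% of the members' windows, against 10.5% of the 12890 windows of tested genes and 15.2% of all 35116 windows. CCAAT was in 74.1% of the members' windows, against 35% and 34.6%. Both were in 50%, against 4.19% and 5.9%. A match is a description of letters, not of a bound site. No form of the CHR other than TTTGAA was searched, so a window without it is not shown to lack a CHR. Stretches of 6 promoters are shown, from 150 bases before to 30 bases after the start. They are of 5 genes that fell at the higher dose in at least 1 line and of MYBL2. MYBL2 passed the threshold in neither line and holds neither motif in this stretch. These 6 were picked, so they do not show whether the motifs go with a fall. HMMR, PRC1 and KIF18A, among others, hold both motifs in a window and fell in neither line at that dose. CCNA2, CCNB1 and AURKB hold no TTTGAA in a window and fell in both. Capitals mark TTTGAA or CCAAT, or TTCAAA or ATTGG where the match is on the other strand.
CDK1 (chr10:60778328-60778507, plus strand): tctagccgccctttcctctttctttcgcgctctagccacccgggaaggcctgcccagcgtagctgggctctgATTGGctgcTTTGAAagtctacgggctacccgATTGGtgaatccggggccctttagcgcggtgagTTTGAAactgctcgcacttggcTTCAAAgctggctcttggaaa
CCNB2 (chr15:59104996-59105175, plus strand): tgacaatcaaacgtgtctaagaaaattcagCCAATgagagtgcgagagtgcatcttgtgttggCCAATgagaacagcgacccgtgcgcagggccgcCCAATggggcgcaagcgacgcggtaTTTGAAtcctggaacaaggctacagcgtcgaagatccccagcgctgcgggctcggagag
PLK1 (chr16:23678739-23678918, plus strand): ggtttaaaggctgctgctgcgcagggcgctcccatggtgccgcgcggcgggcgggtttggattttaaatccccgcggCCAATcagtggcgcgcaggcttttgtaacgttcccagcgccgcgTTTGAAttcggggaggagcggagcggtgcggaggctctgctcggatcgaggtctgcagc
SPC25 (chr2:168890401-168890580, minus strand): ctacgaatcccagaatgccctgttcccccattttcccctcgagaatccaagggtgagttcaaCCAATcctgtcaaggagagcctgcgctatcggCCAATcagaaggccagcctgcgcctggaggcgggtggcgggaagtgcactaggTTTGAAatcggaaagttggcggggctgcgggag
ESPL1 (chr12:53268149-53268328, plus strand): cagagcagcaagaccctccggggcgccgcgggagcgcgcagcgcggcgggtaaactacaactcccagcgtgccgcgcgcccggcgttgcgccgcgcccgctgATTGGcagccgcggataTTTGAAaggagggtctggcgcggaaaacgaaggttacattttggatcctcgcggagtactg
MYBL2 (chr20:43666964-43667143, plus strand): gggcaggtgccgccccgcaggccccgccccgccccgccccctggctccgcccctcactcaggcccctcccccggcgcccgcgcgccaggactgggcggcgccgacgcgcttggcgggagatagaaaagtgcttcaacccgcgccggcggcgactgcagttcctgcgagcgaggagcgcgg
The CDK1 stretch holds 3 CHR cores and 2 CCAAT boxes, and that of CCNB2 holds 1 and 3.

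Sequencing depth is unknown, since FPKM values keep no read counts, and no counting error is given. Between 9284 and 10571 genes reached 1 FPKM in a library. No label states that replicates were separate cultures, so the p-values reflect a spread between libraries that may be technical. One library in each line stood apart. In XG1 at 1000 nM replicate 2 the median of all genes lay 0.18 below its group (members 0.19 below), and in AMO1 DMSO replicate 3 it also lay 0.18 below its group (members 0.20 below). Members under both other libraries of the group numbered 29 and 32 of 50 in these, and 35 in both XG1 DMSO replicate 3 and AMO1 100 nM replicate 2, whose members lay 0.11 and 0.18 below their groups. Counts of members called are given with and without the 2 libraries that stand apart. For 10 members a gene on the opposite strand lies at the 3′ end, and 9 have a named pseudogene in GENCODE 29. The levels of those genes are uncertain, since the sources used here do not say whether reads were counted by strand or how reads shared with a near-identical copy were counted.

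At 1000 nM many of the mitotic genes fell in both lines. In XG1 25 of the 50 fell and 0 rose, where 15.7% of all tested genes fell and 1.9% rose. In AMO1 19 fell and 0 rose, where 15.4% of all genes fell and 1.78% rose. The members' median log2 change was -0.58 in XG1 and -0.47 in AMO1, against -0.19 and -0.18 over all tested genes. In each line 48 of the 50 members (96%) had a change below 0, against 73.6% of all genes in XG1 and 74% in AMO1. Among the 8150 genes with a group mean of at least 5 FPKM, 47 of them members, 26 members fell in XG1, where 21% of genes did, and 19 in AMO1, where 20% did. Since RNA came from whole cultures, fewer cells in G2 and mitosis and less of these RNAs per cell cannot be told apart. Several cell type markers were lower as well. In XG1 the summed plasma cell markers were at 44.4 to 55.2 FPKM at 1000 nM, against 72.1 to 75.9 FPKM in DMSO, the T cell and myeloid markers at 21.4 to 27.9 FPKM, against 32.4 to 38.4 FPKM, and the stromal and epithelial markers at 83.7 to 99.01 FPKM, against 106.2 to 115.3 FPKM, with no overlap in any of these lists. Of the single genes of these 3 lists, XBP1 (-0.77) and LYZ (-0.78) fell in XG1. The summed erythroid markers, carried by a few globin and glycophorin genes, overlapped, at 2657 to 3180 FPKM, against 2937 to 3188 FPKM, but 4 of the 11 fell in XG1: KLF1 (-1.92), HEMGN (-1.99), GATA1 (-0.56) and EPOR (-0.59). KLF1, an erythroid transcription factor, was at 14.4 ± 2.42 FPKM at 1000 nM, against 56.8 ± 2.43 FPKM in DMSO (mean ± SD, n = 3 each). In AMO1 the plasma cell markers summed to 4808 to 5454 FPKM at 1000 nM, against 5215 to 7249 FPKM in DMSO, and 3 of the 10 fell: SLAMF7 (-1.17), TNFRSF17 (-0.89) and IRF4 (-0.67), each with groups that did not overlap. Centred, KLF1, HEMGN and XBP1 of these fell in XG1 and SLAMF7 in AMO1. The part of these markers in the members' changes was not tested.

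Because the median of all genes was itself lower at 1000 nM, each library was also centred on its own median. On that scale 12 members fell in XG1 and 0 rose, where 7.94% of all genes fell and 7.94% rose, and in AMO1 9 fell and 1 rose, where 6.68% fell and 8.29% rose. The members' median change was -0.32 in XG1 and -0.17 in AMO1. Centring subtracts the median level of each library. At 1000 nM it took out more than the median change of all genes, so the median gene lay above 0 on that scale in both lines. It is therefore another scale and not a correction. By 44 ERCC spike-ins (added control RNAs) library offsets lay between -0.0779 and 0.0723 log2. By the median of genes they lay between -0.457 and 0.289. Of 53 results for named members, 51 kept direction and side of the threshold with spike-in scaling and 44 with centring. Since the spike-in offsets were small, that scaling moved the values little, so its 51 are no separate check on the scale. Which scale is nearer to RNA per cell was not tested. The counts moved when single libraries were left out. Without XG1 1000 nM replicate 2, 12 members fell, and without XG1 DMSO replicate 1, 13 fell. In AMO1 25 fell without DMSO replicate 3, 10 without DMSO replicate 2 and 11 without 1000 nM replicate 1. With both libraries that stand apart left out, 17 fell in XG1 and 28 in AMO1, with median changes of -0.45 and -0.59. Shares of all genes that fell with libraries left out are not given here, so these counts cannot be set against them.

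**Figure D1:**
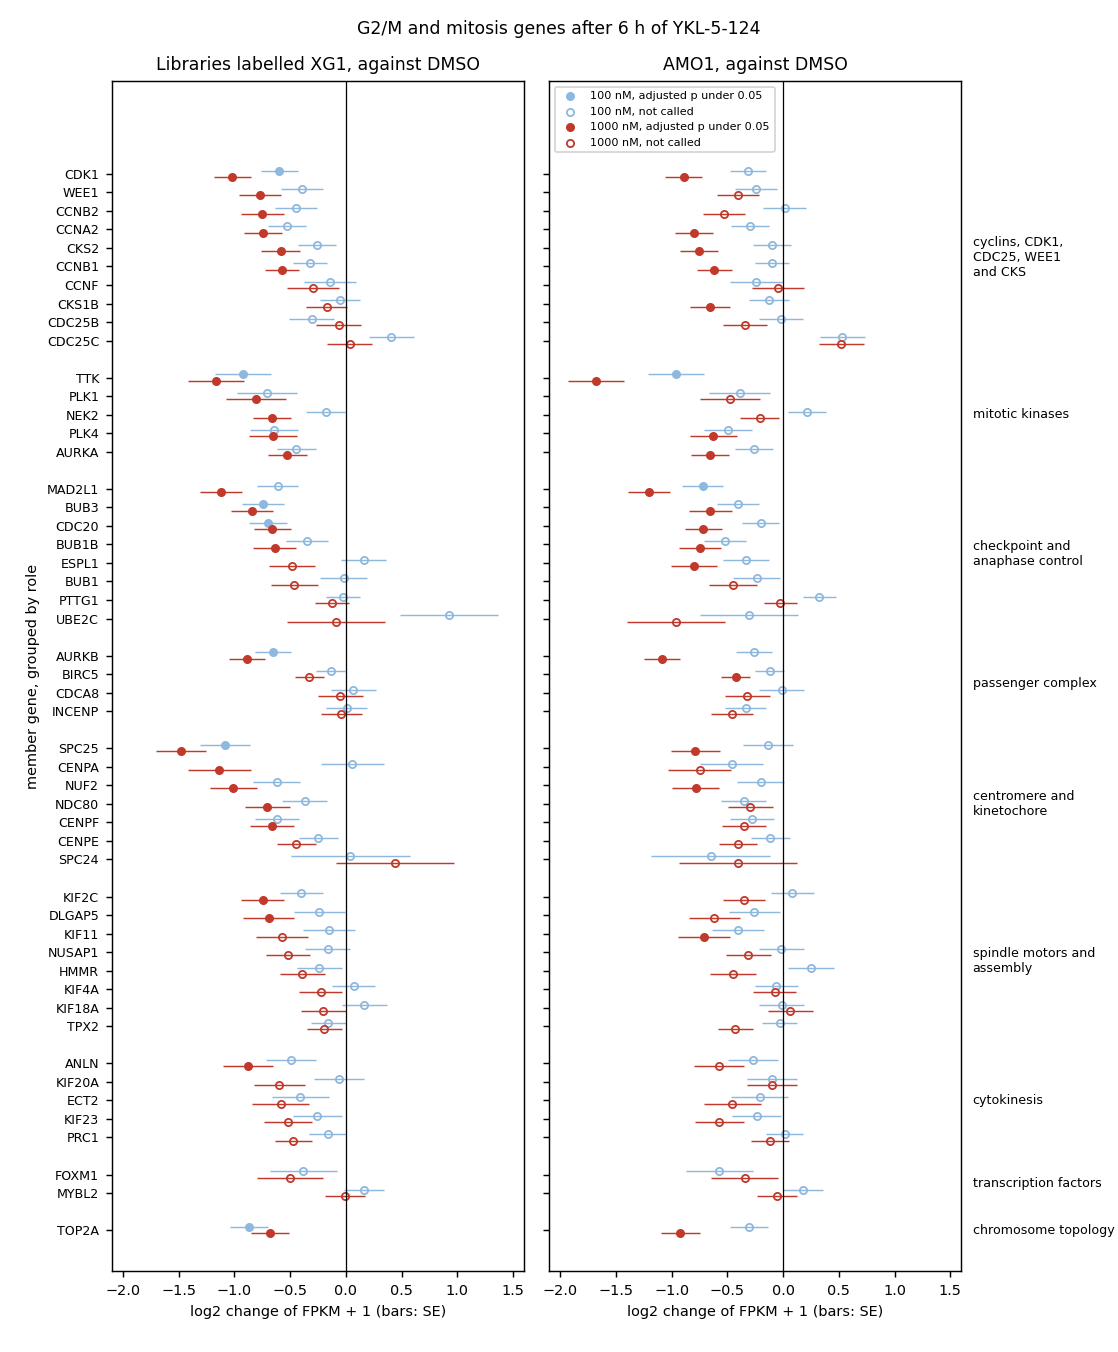
Log2 change of FPKM + 1 against DMSO for all 50 members, grouped by role, in XG1 (left) and AMO1 (right) at 100 nM (blue) and 1000 nM (red). Bars are SE and filled points have an adjusted p under 0.05. At 1000 nM 48 of the 50 points in each line lie left of 0.

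The cyclins, CDK1 and its regulators fell in 6 of 10 cases in XG1 and 5 of 10 in AMO1 at 1000 nM. On the centred scale 3 fell in XG1, while 2 fell and 1 rose in AMO1. The counts of this and every other role stand beside 15.7% of all genes that fell in XG1 and 15.4% in AMO1. Centred, those shares were 7.94% and 6.68%. CDK1, the kinase that starts mitosis, stood at 67.5, 67.8 and 79.7 FPKM in XG1 at 1000 nM, against 149, 151 and 138 FPKM in DMSO. AMO1 libraries held 35.96, 39.6 and 45.1 FPKM at 1000 nM, against 90.4, 83.2 and 56.5 FPKM in DMSO. The groups did not overlap in either line, and AMO1 DMSO replicate 3 lay lowest of its group. CDK1 changed by -1.02 log2 in XG1 (SE 0.16, limma adjusted p = 0.00033) and -0.89 in AMO1 (SE 0.16, adjusted p = 0.00101), and on the centred scale the changes were -0.76 and -0.599, both past the threshold.

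CCNA2 (cyclin A2, active in S phase and G2) was at 18.98, 14.8 and 21.97 FPKM at 1000 nM in XG1, against 32.8, 34.1 and 27.95 FPKM in DMSO. AMO1 libraries held 19.4, 20.7 and 18.4 FPKM, against 34.03, 38.04 and 31.9 FPKM in DMSO. The groups did not overlap, and the change was -0.75 in XG1 (SE 0.17, limma adjusted p = 0.00518) and -0.799 in AMO1 (SE 0.17, adjusted p = 0.00327), with centred values of -0.49 and -0.51, both past the threshold. EXOSC9 lies on the other strand at the 3′ end of CCNA2.

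CCNB1 (cyclin B1, the main partner of CDK1 in mitosis) was at 59.4, 42.2 and 58.7 FPKM in XG1 at 1000 nM, against 94.7, 80.8 and 64.4 FPKM in DMSO, and at 34.6, 30.3 and 32.7 FPKM in AMO1 at 1000 nM, against 48.1, 51.8 and 51.2 FPKM in DMSO. The 1000 nM libraries lay under all DMSO libraries in both lines. It changed by -0.57 log2 in XG1 (SE 0.15, limma adjusted p = 0.0149) and -0.62 in AMO1 (SE 0.15, adjusted p = 0.00909). On the centred scale neither call held (adjusted p = 0.0984 and 0.0906). In XG1 the adjusted p was also 0.101 without DMSO replicate 1, 0.054 without DMSO replicate 2 and 0.0998 without 1000 nM replicate 2.

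WEE1, the kinase that holds CDK1 inactive, was at 9.305, 6.36 and 8.79 FPKM in XG1 at 1000 nM, against 17.3, 15.3 and 11.3 FPKM in DMSO. The groups did not overlap, and it changed by -0.77 log2 (SE 0.19, limma adjusted p = 0.00812), with a centred change of -0.51. Its adjusted p was 0.0579 without XG1 DMSO replicate 1 and 0.0508 without 1000 nM replicate 2. In AMO1 it was at 5.38, 5.2 and 5.32 FPKM at 1000 nM, against 6.91, 8.89 and 6.43 FPKM in DMSO, a change of -0.41 (SE 0.19, adjusted p = 0.153).

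CDC25B and CDC25C remove the phosphates that WEE1 and its relatives place on CDK1. CDC25B was at 10.1, 8.49 and 13.6 FPKM in XG1 at 1000 nM, against 10.8, 9.96 and 12.6 FPKM in DMSO, and at 83.4, 74.5 and 90.4 FPKM in AMO1, against 119, 119 and 82 FPKM in DMSO. Its groups overlapped in both lines, and its changes of -0.07 and -0.34 (SE 0.20 and 0.20) missed the threshold. The XG1 change was above 0 on the centred scale (0.19). CDC25C was higher rather than lower in AMO1. It was at 9.11, 10.6 and 13.1 FPKM at 1000 nM, against 10.1, 7.46 and 4.99 FPKM in DMSO, and its change of 0.52 (SE 0.201, limma adjusted p = 0.0806) missed the threshold. On the centred scale it rose (0.82, adjusted p = 0.0045), as it did with quantile scaling and without AMO1 DMSO replicate 1. In XG1 it changed by 0.03. Among the other members of the group, CKS2 (a small CDK-binding protein) fell in both lines (-0.58 and -0.76), CCNB2 (cyclin B2) fell in XG1 (-0.75) and CKS1B fell in AMO1 (-0.65).

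**Figure D2:**
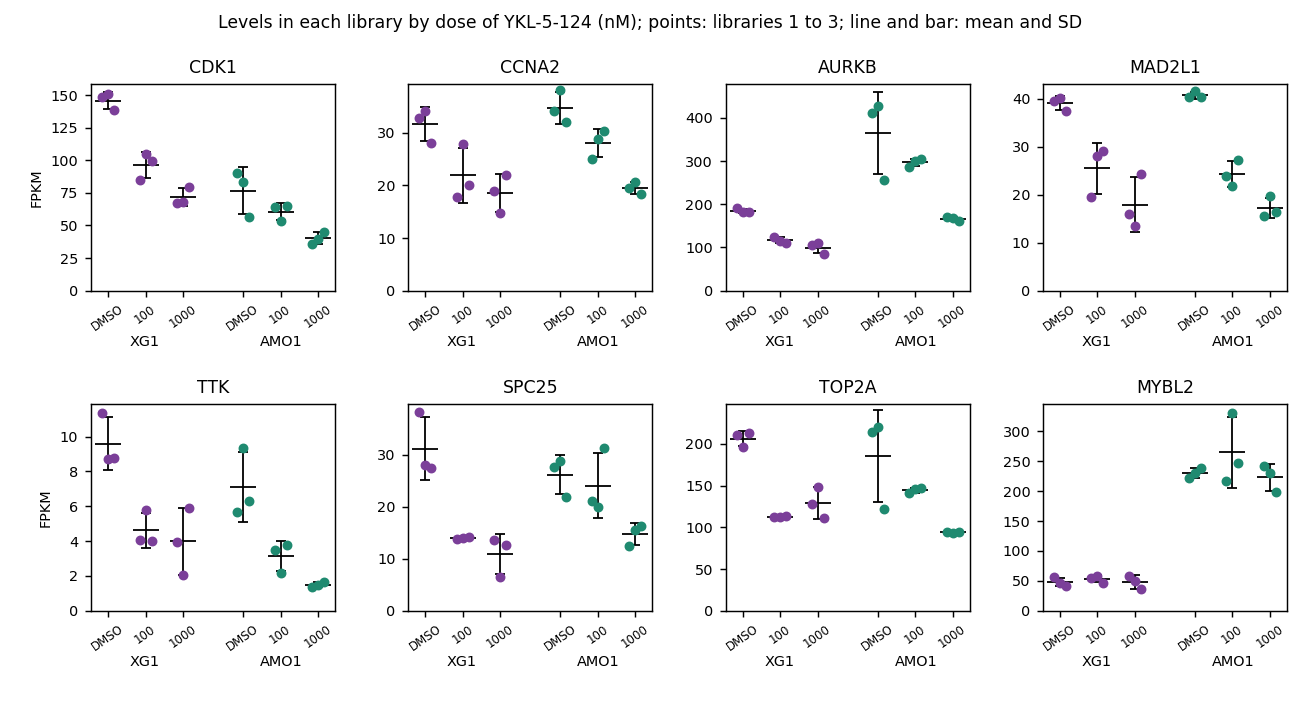
FPKM of 8 members in each of the 18 libraries, by dose of YKL-5-124 (DMSO, 100 nM and 1000 nM, left to right), XG1 in purple and AMO1 in green. Points are libraries 1 to 3, and the line and bar are mean and SD. CDK1, CCNA2, AURKB, MAD2L1, TTK, SPC25 and TOP2A were lower at 1000 nM than in DMSO in both lines, with groups that did not overlap, and those of MYBL2 overlapped.

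The 5 genes grouped here as mitotic kinases (TTK, PLK1, PLK4, AURKA and NEK2) all fell in XG1 at 1000 nM, and 3 of them fell in AMO1. Other kinases are counted under other roles, among them BUB1, a checkpoint kinase that fell in neither line. TTK (MPS1, the kinase that starts the spindle checkpoint) was at 3.97, 2.03 and 5.93 FPKM in XG1 at 1000 nM, against 11.4, 8.71 and 8.75 FPKM in DMSO. The AMO1 libraries held 1.35, 1.49 and 1.64 FPKM at 1000 nM, against 5.65, 9.37 and 6.28 FPKM in DMSO. Treated and DMSO libraries were apart in both lines. TTK changed by -1.16 log2 in XG1 (SE 0.25, limma adjusted p = 0.00347) and by -1.68 in AMO1 (SE 0.25, adjusted p = 0.00019), the largest fall of any member in AMO1. On the centred scale the changes were -0.904 and -1.38, both past the threshold.

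PLK1, the Polo-like kinase needed for spindle formation and mitotic entry, was at 21.03, 24.5 and 27.9 FPKM in XG1 at 1000 nM, against 34.1, 48.3 and 49.4 FPKM in DMSO. Its XG1 change of -0.81 (SE 0.27, limma adjusted p = 0.048) lay close to the threshold. The call was lost with an adjusted p of 0.161 on the centred scale, and of 0.142 and 0.124 without DMSO replicates 2 and 3, and 0.14 and 0.12 without 1000 nM replicates 1 and 2. In AMO1 it was at 43.4, 44.2 and 49.6 FPKM at 1000 nM, against 92.9, 85.3 and 32.7 FPKM in DMSO, with groups that overlapped and a change of -0.48 (SE 0.27, adjusted p = 0.261). ERN2 lies on the other strand at its 3′ end. PLK4, the kinase of centriole duplication, and AURKA, the spindle pole kinase, fell in both lines. PLK4 changed by -0.65 in XG1 and -0.62 in AMO1, and AURKA by -0.53 and -0.66. NEK2, a kinase of centrosome separation, fell in XG1 (-0.66) and changed by -0.21 in AMO1, which missed the threshold. On the centred scale only TTK of these 5 kinases was called in either line.

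Spindle checkpoint and anaphase genes fell in 4 of 8 cases in XG1 and 5 of 8 in AMO1 at 1000 nM, where 15.7% and 15.4% of all genes fell. On the centred scale 2 and 3 fell, where 7.94% and 6.68% of all genes did. MAD2L1 (MAD2, which holds CDC20 in check until chromosomes are attached) was at 15.9, 13.6 and 24.4 FPKM in XG1 at 1000 nM, against 39.6, 40.2 and 37.4 FPKM in DMSO. AMO1 had 15.6, 19.7 and 16.4 FPKM, against 40.3, 41.6 and 40.3 FPKM in DMSO. The groups did not overlap in either line, and the DMSO libraries of both lines lay between 37.4 and 41.6 FPKM. MAD2L1 changed by -1.12 log2 in XG1 (SE 0.19, limma adjusted p = 0.00047) and -1.201 in AMO1 (SE 0.19, adjusted p = 0.00025), and on the centred scale by -0.86 and -0.91.

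BUB1B (BUBR1) and BUB3, which form the checkpoint complex with MAD2, and CDC20, the activator of the anaphase-promoting complex, fell in both lines. BUB3 changed by -0.84 in XG1 and -0.65 in AMO1, BUB1B by -0.64 and -0.75, and CDC20 by -0.66 and -0.72. On the centred scale BUB3 was past the threshold in XG1 alone and BUB1B in AMO1 alone, and CDC20 in neither. ESPL1 (separase, which cuts cohesin at anaphase) was at 0.891, 1.104 and 1.75 FPKM in AMO1 at 1000 nM, against 2.93, 3.08 and 2.61 FPKM in DMSO, and changed by -0.80 (SE 0.203, limma adjusted p = 0.00986, and 0.0633 without 1000 nM replicate 1). In XG1 it was at 3.47, 2.58 and 4.22 FPKM, against 5.88, 5.796 and 3.87 FPKM in DMSO, with groups that overlapped and a change of -0.48 (SE 0.203, adjusted p = 0.108). PTTG1 (securin, the inhibitor of separase) changed by -0.13 in XG1 and -0.02 in AMO1 and missed the threshold in both.

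Of the 4 chromosomal passenger genes, AURKB fell in both lines and BIRC5 (survivin) fell in AMO1. AURKB, the kinase that corrects faulty chromosome attachment, was at 106, 109 and 84.6 FPKM in XG1 at 1000 nM, against 190.4, 181 and 181 FPKM in DMSO. AMO1 had 171, 168 and 162 FPKM at 1000 nM, against 411, 427 and 256 FPKM in DMSO. The groups did not overlap, with AMO1 DMSO replicate 3 well under the other 2. AURKB changed by -0.89 log2 in XG1 (SE 0.16, limma adjusted p = 0.0009) and -1.09 in AMO1 (SE 0.16, adjusted p = 0.00016), and on the centred scale by -0.63 and -0.79. BIRC5 changed by -0.43 in AMO1. INCENP, the scaffold of the complex, changed by -0.04 in XG1 and -0.46 in AMO1, and CDCA8 (borealin) by -0.05 and -0.32, neither past the threshold.

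Centromere and kinetochore genes fell in 5 of 7 cases in XG1 and 2 of 7 in AMO1 at 1000 nM, where 15.7% and 15.4% of all genes fell. On the centred scale 3 and 1 fell, where 7.94% and 6.68% of all genes did. SPC25, a subunit of the NDC80 complex that binds microtubules, was at 13.6, 6.57 and 12.6 FPKM in XG1 at 1000 nM, against 38.2, 28.1 and 27.5 FPKM in DMSO, and changed by -1.48 log2 (SE 0.22, limma adjusted p = 0.00019), the largest fall of any member in XG1. In AMO1 it was at 12.4, 15.5 and 16.4 FPKM, against 27.8, 28.9 and 22 FPKM in DMSO, a change of -0.79 (SE 0.22, adjusted p = 0.0197). The 1000 nM and DMSO libraries were apart in both lines. The AMO1 adjusted p was 0.0683 without DMSO replicate 1, 0.0853 without DMSO replicate 2 and 0.0957 without 1000 nM replicate 1. The centred changes were -1.22 and -0.49. NOSTRIN lies on the other strand at the 3′ end of SPC25.

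NUF2, another subunit of that complex, was at 19.6, 13.6 and 18.98 FPKM in XG1 at 1000 nM, against 42.9, 36.9 and 28.4 FPKM in DMSO, and at 23.9, 23.02 and 16.99 FPKM in AMO1, against 27.4, 39.8 and 46.4 FPKM in DMSO, with no overlap in either line. The changes were -1.01 (SE 0.21, limma adjusted p = 0.00274) and -0.78 (SE 0.21, adjusted p = 0.0146). In AMO1 the adjusted p was 0.122 on the centred scale, 0.062 without DMSO replicate 2 and 0.0749 without 1000 nM replicate 3. CENPA, the histone variant that marks centromeres, was at 3.86, 1.88 and 8.18 FPKM in XG1 at 1000 nM, against 9.75, 11.3 and 9.32 FPKM in DMSO, and at 8.33, 9.47 and 7.58 FPKM in AMO1, against 15.1, 15.5 and 13.96 FPKM in DMSO. It changed by -1.13 in XG1 (SE 0.28, adjusted p = 0.00945, and 0.0622 without 1000 nM replicate 2), and its groups did not overlap in AMO1 either, where the change of -0.75 missed the threshold. NDC80 and CENPF, a large kinetochore-associated protein, fell in XG1 (-0.71 and -0.66) and changed by -0.296 and -0.35 in AMO1. SPC24 lay under 5 FPKM in every library, its SE was 0.53, and its change of 0.44 in XG1 gives no direction.

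Spindle motors and assembly factors fell in 2 of 8 cases in XG1 and 1 of 8 in AMO1 at 1000 nM, where 15.7% and 15.4% of all genes fell, and in 1 and 0 on the centred scale, where 7.94% and 6.68% did. The AMO1 counts lay no higher than those shares. KIF2C (MCAK, which takes microtubules apart at centromeres) was at 29.1, 23.7 and 39.99 FPKM in XG1 at 1000 nM, against 56.6, 52.2 and 46 FPKM in DMSO, with no overlap, and changed by -0.75 (SE 0.19, limma adjusted p = 0.0108). That adjusted p was 0.0577 without DMSO replicate 1 and 0.0738 without 1000 nM replicate 2. In AMO1 KIF2C was at 9.26, 10.8 and 11.1 FPKM, against 13.2, 13.1 and 13.96 FPKM in DMSO, a change of -0.35 (SE 0.19) that missed the threshold. DLGAP5, a spindle assembly factor, fell in XG1 (-0.69), and KIF11 (Eg5, which pushes the poles apart) fell in AMO1 (-0.71). TPX2, which activates AURKA on the spindle, KIF4A, KIF18A, HMMR and NUSAP1 did not pass the threshold in either line, with changes between -0.52 and 0.06.

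Cytokinesis genes fell in 1 of 5 cases in XG1 and 0 of 5 in AMO1, counts near or under the shares over all genes. The called gene was ANLN (anillin, a scaffold of the contractile ring), at 4.36, 1.78 and 3.33 FPKM in XG1 at 1000 nM, against 8.76, 6.17 and 4.69 FPKM in DMSO, with no overlap. It changed by -0.88 (SE 0.22, limma adjusted p = 0.0106), and without XG1 DMSO replicate 1 or 1000 nM replicate 2 the adjusted p was 0.0793 or 0.0724. In AMO1 ANLN was at 1.195, 1.204 and 1.65 FPKM, against 2.03, 2.83 and 2.66 FPKM in DMSO, with groups that did not overlap and a change of -0.58 (SE 0.22, adjusted p = 0.0822). PRC1, which bundles the central spindle, and the kinesins KIF20A and KIF23 changed in XG1 by -0.47, -0.597 and -0.52, none past the threshold.

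Neither transcription factor of the late cell cycle passed the threshold. MYBL2 was at 58.8, 49.7 and 36.3 FPKM in XG1 at 1000 nM, against 55.9, 46.3 and 41.7 FPKM in DMSO, and at 241, 229.8 and 198 FPKM in AMO1, against 222, 230.3 and 239 FPKM in DMSO. Its groups overlapped, and its changes were -0.01 (95% interval -0.38 to 0.37) and -0.05 (95% interval -0.43 to 0.32), with 0.25 and 0.24 on the centred scale. FOXM1 was at 3.27, 3.03 and 8.31 FPKM in XG1 at 1000 nM, against 6.98, 6.94 and 6.18 FPKM in DMSO, and at 10.8, 11.7 and 15.8 FPKM in AMO1, against 21.3, 18.2 and 11.03 FPKM in DMSO. Its changes of -0.502 (SE 0.299) and -0.35 (SE 0.299) missed the threshold, and in XG1 replicate 3 at 1000 nM lay above all 3 DMSO libraries.

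TOP2A (topoisomerase II alpha, which untangles sister chromosomes) was at 128, 148 and 111 FPKM in XG1 at 1000 nM, against 210.2, 196 and 213 FPKM in DMSO, and at 94.1, 93.01 and 94.8 FPKM in AMO1, against 214, 219.8 and 122 FPKM in DMSO. All 1000 nM libraries lay under all DMSO libraries of their line. TOP2A changed by -0.68 in XG1 (SE 0.17, limma adjusted p = 0.00993, and 0.148 on the centred scale) and by -0.92 in AMO1 (SE 0.17, adjusted p = 0.00121, centred change -0.63).

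At 100 nM fewer members passed the threshold. In XG1 7 of the 50 fell and 0 rose, where 3.98% of all genes fell and 2.63% rose, and the members' median change was -0.26, against -0.01 over all genes. In AMO1 2 fell and 0 rose, where 1.76% of all genes fell and 0.434% rose, with medians of -0.24 and -0.09, so the AMO1 count lay near that of all genes. Centred on the library medians, 11 fell and 0 rose in XG1, where 7.28% of all genes fell and 5.01% rose. In AMO1 1, TTK, fell and 1, CDC25C, rose, where 1.54% fell and 2.37% rose. The 7 genes in XG1 were SPC25 (-1.09), TTK (-0.92), TOP2A (-0.87), BUB3 (-0.75), CDC20 (-0.699), AURKB (-0.65) and CDK1 (-0.597), and the 2 in AMO1 were TTK (-0.96) and MAD2L1 (-0.72). These counts rested on single libraries. In XG1 2 to 4 fell without any 1 of the DMSO libraries or of 100 nM replicates 1 and 3, and 9 without 100 nM replicate 2. In AMO1 10 fell without DMSO replicate 3, and 0 without any 1 of the other 5 libraries of that comparison. The matching shares of all genes are not given here.

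SPC25 and TOP2A in XG1 were already separate from DMSO at 100 nM. SPC25 was at 13.8, 14.1 and 14.2 FPKM at 100 nM in XG1, against 38.2, 28.1 and 27.5 FPKM in DMSO, and TOP2A was at 112, 112 and 114 FPKM, against 210.2, 196 and 213 FPKM. CENPA in XG1 was at 9.36, 11.1 and 11.2 FPKM at 100 nM, inside the range of DMSO. AURKB in AMO1 was at 171, 168 and 162 FPKM at 1000 nM, against 286, 299.7 and 304 FPKM at 100 nM. It was the 1 member that differed between the doses (1000 minus 100 nM -0.83, SE 0.16, limma adjusted p = 0.0359), where 0.147% of all genes were lower at 1000 nM in AMO1. With any 1 library of that comparison left out, 0 members differed, and with both libraries that stand apart left out, neither of which is in this comparison, 5 did, with the same AURKB difference and another estimate of the shared spread. In XG1 0 members differed between the doses by limma (7 at an unadjusted p under 0.05), where 0.139% of all genes were lower at the adjusted threshold. For the count of 7 no share of all genes is given here. The members' median difference between doses was -0.26 in XG1 and -0.31 in AMO1. Without XG1 1000 nM replicate 3, CENPA and MAD2L1 were lower at 1000 nM than at 100 nM.

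**Figure D3:**
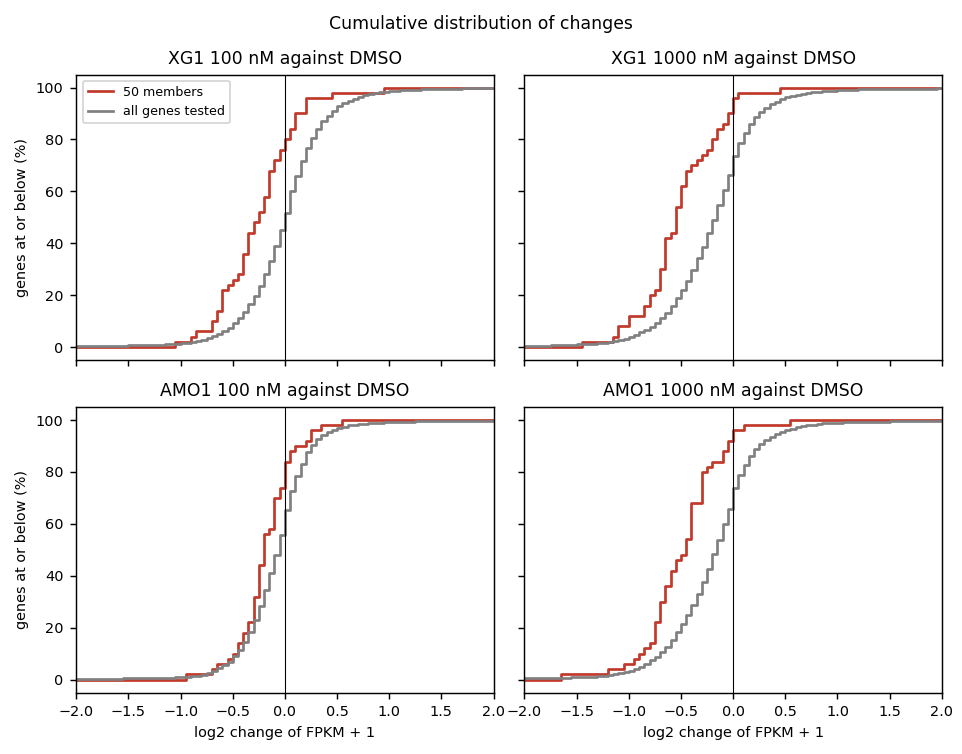
Share of genes (%) with a log2 change of FPKM + 1 at or below the value on the x axis, for the 50 members (red) and all 12204 genes tested (grey), in XG1 (top) and AMO1 (bottom) at 100 nM (left) and 1000 nM (right). Over most of its length the members' curve lies to the left of that of all genes, with medians at 1000 nM of -0.58 in XG1 and -0.47 in AMO1.

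At 1000 nM 15 members fell in both lines, which is 60% of the members that fell in XG1 and 78.9% of those in AMO1. Over all genes 927 fell in both, 48.3% of those in XG1 and 49.5% of those in AMO1. The 15 were AURKA, AURKB, BUB1B, BUB3, CCNA2, CCNB1, CDC20, CDK1, CKS2, MAD2L1, NUF2, PLK4, SPC25, TOP2A and TTK. Another 10 passed the threshold in XG1 and not in AMO1, and 4 (BIRC5, CKS1B, ESPL1 and KIF11) in AMO1 and not in XG1, but for 0 of the 50 did the difference between the lines' changes pass the threshold by limma at either dose, where 0.68% of all genes did at 1000 nM and 0.156% at 100 nM. At an unadjusted p under 0.05 the count was 1 member at 1000 nM and 3 at 100 nM. No share of all genes at that cut-off is given here. Across the 50 genes the 1000 nM changes of the 2 lines correlated at r = 0.59 (Spearman 0.573), against 0.345 (0.471) over the 12204 genes, as a description over genes that share the same libraries. Without AMO1 DMSO replicate 3 the difference at 1000 nM passed the threshold for CKS1B, a smaller fall in XG1, and on the centred scale the difference at 100 nM passed it for SPC25, a larger fall in XG1.

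**Figure D4:**
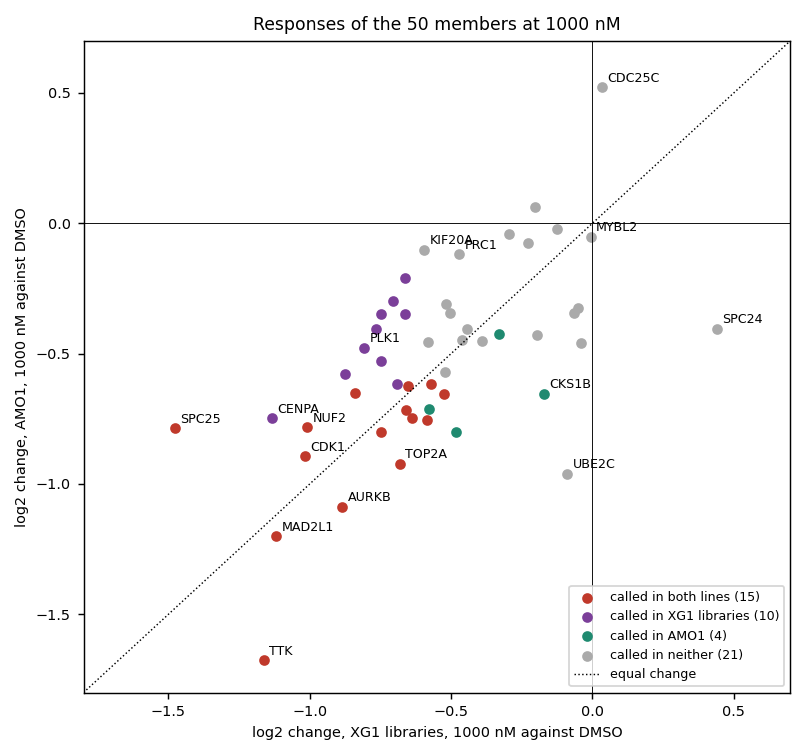
Log2 change of FPKM + 1 at 1000 nM against DMSO of each of the 50 members in XG1 (x axis) and AMO1 (y axis), coloured by the line in which its adjusted p was under 0.05. The dotted line marks equal change. The 15 genes called in both lines lie in the lower left.

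The 30 members with TTTGAA in a promoter window and the 12 without it both had median changes below 0. Of the 30, 16 fell in XG1 and 12 in AMO1, with median changes of -0.61 and -0.57. Of the 12, 5 fell in XG1 and 3 in AMO1, with medians of -0.52 and -0.38. Of the 8 members with no window 4 fell in each line. The classes with and without TTTGAA were not tested against each other.

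In DMSO the lines differed in the level of 29 members: 20 were higher in XG1 than in AMO1 and 9 lower, where 28.3% of all genes were higher and 34.4% lower. The members' median difference was 0.27 log2, against -0.08 over all genes. Without AMO1 DMSO replicate 3, 19 were higher and 13 lower, with a median difference of 0.12. The XG1 libraries are those whose markers go against their label, and the cause of any of them was not tested. Higher in XG1 was KIF2C, at 56.6, 52.2 and 46 FPKM in XG1 and 13.2, 13.1 and 13.96 FPKM in AMO1 (log2 difference 1.86, SE 0.19, limma adjusted p = 4.4e-08), and CDK1, at 149, 151 and 138 FPKM and 90.4, 83.2 and 56.5 FPKM (0.95, SE 0.16, adjusted p = 4.1e-05). Lower in XG1 were MYBL2, at 55.9, 46.3 and 41.7 FPKM in XG1 and 222, 230.3 and 239 FPKM in AMO1 (-2.25, adjusted p = 9.4e-10), FOXM1 (-1.17) and CDC25B (-3.13).

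UBE2C, the ubiquitin-conjugating enzyme of the anaphase-promoting complex, was singled out after its values were seen. In DMSO it was at 1.66, 7.805 and 5.02 FPKM in XG1 and 821, 898 and 707 FPKM in AMO1, a log2 difference of -7.27 (SE 0.44, limma adjusted p = 3.1e-09). In AMO1 it was at 416, 414 and 409.9 FPKM at 1000 nM, and those groups did not overlap, yet the change of -0.96 (SE 0.44, adjusted p = 0.161) missed the threshold. The SE rests on a spread shared over both lines, and UBE2C varied more on the log scale in XG1. There it ran from 1.14 to 7.29 FPKM at 1000 nM. UBE2C has 4 named pseudogenes in GENCODE 29, so its level is uncertain.

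**Figure D5:**
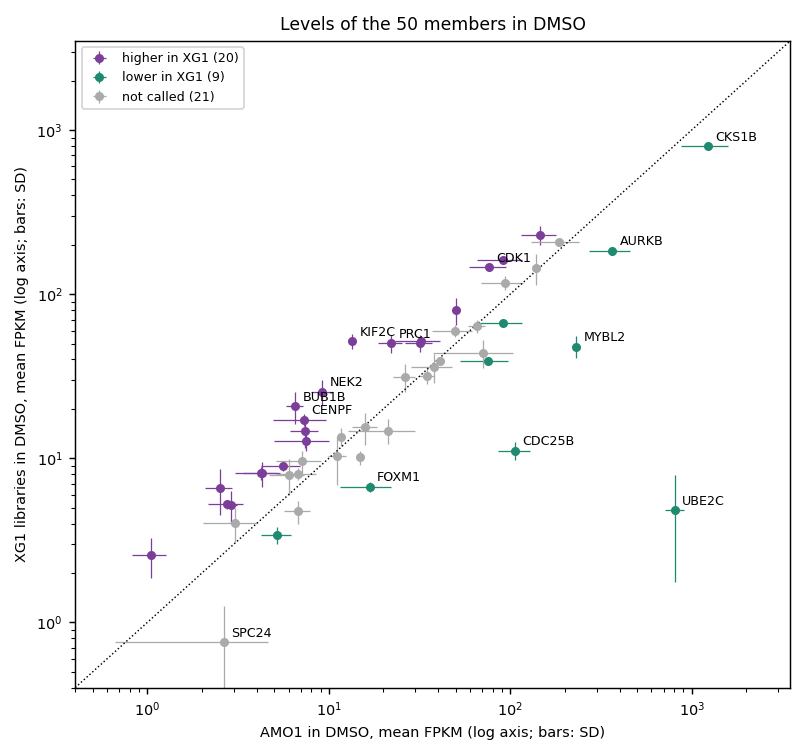
Mean FPKM of the 50 members in DMSO in XG1 (y axis) and AMO1 (x axis), both on log axes, with SD over 3 libraries as bars. Purple genes were higher and green genes lower in XG1 (adjusted p under 0.05). UBE2C, MYBL2 and CDC25B lie far below the dotted line of equality.

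Other genes of the same processes were read alongside. Of 72 further mitotic genes 25 fell in XG1 at 1000 nM and 23 in AMO1, with median changes of -0.51 and -0.39. On the centred scale 12 and 11 fell and 2 rose in each line. For these and the lists that follow, the shares of all genes that fell were 15.7% and 15.4%, and centred 7.94% and 6.68%. Among the 72, ERCC6L, a helicase of anaphase DNA bridges, changed by -1.12 in XG1 (limma adjusted p = 0.0006), and LMNB1 (lamin B1) changed by -1.33 in AMO1 (adjusted p = 7.2e-05). Condensin and cohesin subunits fell in 9 of 17 cases in XG1 and 6 of 17 in AMO1, with NCAPH, the condensin I subunit, at -1.19 in XG1 (adjusted p = 0.00044) and -1.16 in AMO1 (adjusted p = 0.00057), and centred 6 and 2 of the 17 fell. Of 13 tested subunits of the anaphase-promoting complex and its activators, 2 fell and 1 rose in XG1 and 3 fell in AMO1, where 15.7% and 15.4% of all genes fell. CDC16 fell in both (-0.78 and -0.54), and the activator FZR1 rose in XG1 (0.66). Centred, 0 of the 13 fell in either line. Of 10 DREAM and MuvB genes 2 fell in XG1 (E2F4 at -0.804 and RBL1 at -0.75), and in AMO1 E2F4 fell (-0.75) and LIN52 rose (0.86). These counts too lay near the shares over all genes. Centred, 1 rose and 1 fell of these 10 in XG1, and 2 rose and 1 fell in AMO1.

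Of 31 DNA replication genes 24 fell in XG1 at 1000 nM, with a median change of -0.91, and 15 fell in AMO1, with a median of -0.52. Their counts were not tested against those of the mitotic genes. PCNA, the sliding clamp, changed by -1.85 in XG1 (limma adjusted p = 6.1e-06), and GINS3 changed by -1.46 in AMO1 (adjusted p = 0.00084). Centred, 20 of the 31 fell in XG1 and 8 in AMO1. Of all genes 15.7% fell in XG1 and 15.4% in AMO1, and centred 7.94% and 6.68%.

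CDK7 itself was at 8.27 ± 1.97 FPKM in XG1 at 1000 nM and 14.97 ± 2.81 FPKM in DMSO, and in AMO1 at 7.39 ± 1.66 FPKM and 12.01 ± 2.65 FPKM (mean ± SD, n = 3 each). It changed by -0.79 in XG1 (limma adjusted p = 0.00945) and -0.63 in AMO1 (adjusted p = 0.0335), and on the centred scale its adjusted p was 0.067 and 0.247. The inhibitor acts on the protein, so its transcript does not check the treatment. CDKN1A (p21, an inhibitor of CDKs) was at 0.614 ± 0.398 FPKM in XG1 at 1000 nM and 0.746 ± 0.128 FPKM in DMSO, and in AMO1 at 265 ± 31.1 FPKM and 208 ± 68.3 FPKM. It passed the threshold at 1000 nM in neither line, and on the centred scale it rose in AMO1 (0.698, adjusted p = 0.0316).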

How the data were processed

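RNA of 18 libraries (6 groups of 3) was made into 3′ end libraries, per the labels' protocols. HISAT2, Cuffnorm and hg19 were the authors' tools and build, per the submitters' processing notes, and the sources used here give no versions, annotation or strand setting. The deposited values are taken to be FPKM because Cuffnorm writes that unit, and the file headers say only expression. No gene was at 0 in any library, and the commonest low value differed by library, from 0.0745 to 0.1333. How that floor arose was not tested. Since FPKM is scaled to transcript length and 3′ end reads are not, levels are compared within a gene.

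The 12204 genes whose mean reached 1 FPKM in any group were tested with limma 3.58.1 (R 4.3.3, statmod 1.5.0; trend and robust) on log2(FPKM + 1) in 1 fit of 18 libraries, for 9 comparisons. The method was tested on simulated data. Members and lists were chosen with earlier results of these data known. Named with every library are the 8 largest called changes with separate groups per line at 1000 nM, the largest of each role, and CDK1, CCNB1, PLK1, CDC25B, WEE1, FOXM1 and MYBL2; of the other lists, some of up to 3 called genes per direction. Alternatives were pseudocounts of 0.1 and 5, no filter, a 5 FPKM filter, centring, quantile and spike-in scaling, only the libraries compared, a replicate block, and libraries left out. Promoters come from RefSeq (GRCh38.p14) and overlaps from GENCODE 29. One gene list is not reported here.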

Additional observations from a re-analysis of the deposited data

Results flagged for a closer look

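Of the mitotic and cell cycle lists read here, 2 genes, neither among the 50, responded differently in the lines at 1000 nM by limma's test of the difference itself. Of all 12204 tested genes 83 did (0.68%). Whether the lists held more such genes than that share would give was not tested, so the 2 are described as single genes. CENPU, a centromere protein, was at 12.2, 11.6 and 14.6 FPKM in XG1 at 1000 nM, against 20.4, 19.5 and 18.9 FPKM in DMSO, and at 9.89, 10.7 and 10.01 FPKM in AMO1, against 8.63, 8.61 and 6.02 FPKM in DMSO. It was lower at 1000 nM in XG1 and higher in AMO1, and the difference of the changes, XG1 minus AMO1, was -0.96 (SE 0.22, limma adjusted p = 0.0481). GADD45A, a stress-induced growth arrest gene, was at 17.7, 8.37 and 23.7 FPKM in XG1 at 1000 nM, against 29.9, 29.8 and 20.2 FPKM in DMSO, and at 29.1, 30.9 and 28.8 FPKM in AMO1, against 11.9, 14.4 and 11.6 FPKM in DMSO, a difference of -1.91 (SE 0.37, limma adjusted p = 0.0171). XG1 1000 nM replicate 2, the library that stands apart, held the lowest GADD45A value, and without it the difference was -1.51 (adjusted p = 0.0164). The adjusted p for GADD45A was over 0.05 without XG1 DMSO replicate 1 (0.0523), XG1 DMSO replicate 2 (0.0609) or AMO1 1000 nM replicate 2 (0.0527). For CENPU it ran from 0.0363 to 0.14 with 1 library left out, with differences between -1.05 and -0.81, and was 0.0585 with spike-in scaling and 0.00571 with centring.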

How the results depend on the processing

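Of 848 alternative values for 53 results, 744 kept direction and side of the threshold, 83 lost the threshold, 8 gained it and 13 reversed; the causes were not tested. The count of called members, 25 for XG1 at 1000 nM, was 12 with centring, 15 with quantile scaling and 15 with only the libraries compared, and 12 to 30 with 1 library left out. The AMO1 count of 19 at 1000 nM was 10 with centring and 10 to 25 with 1 library left out. For XG1 at 100 nM (7) it was 4 without a filter, 11 with centring, 14 with quantile scaling, 14 with both libraries that stand apart left out, and 2 to 9 with 1 library left out. For AMO1 at 100 nM (2) it was 0 with a pseudocount of 0.1, without a filter or with only the libraries compared, 1 with spike-in scaling, 10 with both libraries left out, and 0 to 10 with 1 left out. Between doses in AMO1 (1) it was 0 without a filter, with centring, with quantile scaling and with any 1 library left out, 2 with only the libraries compared and 5 with both libraries left out. Between doses in XG1 (0) it was 0 to 2 with 1 library left out. For the difference between lines (0) it was 0 to 1 at 1000 nM with 1 library left out, and 1 at 100 nM with centring. Leaving out both libraries was chosen after the data were seen. For most of these settings no share of all genes called is given here, so the counts describe the members alone.

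The 13 reversals were of uncalled changes. CDC25B in XG1 was 0.19 with centring, 0.25 with quantile scaling, 0.0767 with both libraries left out, and -0.23 to 0.0767 with 1 left out. MYBL2 in XG1 was 0.25 with centring, 0.32 with quantile scaling, 0.0066 with spike-in scaling and -0.16 to 0.18 with 1 library left out. MYBL2 in AMO1 was 0.24 with centring, 0.10 with quantile scaling and -0.11 to 0.031 with 1 library left out.

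Deviations of same-numbered libraries correlated at -0.124 to 0.091, so no effect shared by libraries of the same number was seen. The labels do not say whether the numbers pair the samples. With the replicate number as a block, 18 and 15 members were called at 1000 nM in XG1 and AMO1, 4 and 0 at 100 nM, and 0 between doses in AMO1. The matching shares of all genes are not given here, so these counts too describe the members alone. Depth is unknown and limits what can be said of genes near 1 FPKM, such as SPC24.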
